A study of Homo sapiens with 3 samples.

Results

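The genes described here encode the proteins of tight junctions in NCI-N87 cells, an established human gastric cancer line. They are 9 genes listed by function, with earlier results of these data known, and found by symbol among the 31907 rows of a TPM table. All 9 were in it: CLDN1, CLDN3, CLDN4, CLDN7, CLDN12, OCLN, F11R, TJP1 and CGN. Values are in TPM, a read share per unit of transcript length, scaled to a fixed total per library. The groups were cells given FOXP4 siRNA1 (1 library), cells given FOXP4 siRNA2 (1 library) and cells given a scrambled siRNA (1 library). All 3 received Lipofectamine 2000, and the labels call the scrambled cells WT and the others Knockdown. FOXP4 is a forkhead transcription factor. The siRNAs are different reagents and not repeats of 1 treatment. The time after transfection was not given in the sources used here, and everything comes from 1 cell line.

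Tight junctions seal the space between epithelial cells near their apical side and limit which ions and solutes pass between them. Claudins form the strands that cross the intercellular space, and the mix of claudins sets how tight or how ion-selective the seal is. Occludin and the junctional adhesion molecules lie in the same membrane region, and plaque proteins such as ZO-1 and cingulin tie the strands to actin. Gastric epithelium typically carries claudin-18, and gastric and intestinal tumours often carry a different set of claudins.

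FOXP4 measured 51.6 TPM with siRNA1 and 36.7 TPM with siRNA2, against 93.9 TPM with the scrambled siRNA. FOXP4 transcripts are rich in GC bases, and its siRNA1 fold after correction for GC content was only -0.20 on the log2 scale, so the library labelled siRNA1 checks its label only weakly. The depth, estimated from the steps of low values, was 17900000 to 18700000 reads. The epithelial markers EPCAM, KRT8, KRT18, KRT19 and CDH1 were all above 1 TPM, with CDH1 low at 4.16 to 11.6 TPM. Of 5 gastric markers, 3 averaged 1 TPM or more, and MUC5AC stayed below 0.05 TPM. Squamous, endothelial and immune markers each summed to less than 1.5 TPM in every library. The endothelial marker PECAM1 and the immune marker CD3E were matched to no row of the TPM table and did not enter these sums. Fibroblast markers summed to 9.07 TPM with siRNA1, 25.0 TPM with siRNA2 and 15.2 TPM with the scrambled siRNA, most of it COL1A1. In bulk RNA, fewer cells with a transcript and less of it per cell cannot be told apart.

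CLDN1 and CLDN4 had the highest mean folds of the 9 genes over the scrambled library, and siRNA2 gave the larger values for both. Folds are differences of log2(TPM + 1), which understates those of low genes. CLDN1, which makes the claudin of tight barriers in skin and many other epithelia (ENSG00000163347.5, chromosome 3, 190305701 to 190322475, minus strand, GRCh38), measured 158 TPM with siRNA1 and 429 TPM with siRNA2, against 89.8 TPM with the scrambled siRNA. Log2 folds of 0.81 and 2.24 averaged 1.53 ± 1.01 (SD over the 2 siRNAs), so the siRNAs differed from each other about as much as their mean differed from the control. CLDN4, a barrier claudin known as the receptor of a Clostridium enterotoxin (ENSG00000189143.9, chromosome 7, 73799542 to 73832693, plus strand), measured 332 TPM with siRNA1 and 875 TPM with siRNA2, against 245 TPM with the scrambled siRNA. Log2 folds of 0.43 and 1.83 averaged 1.13 ± 0.99 (SD, n = 2). The 95% counting interval of the CLDN4 ratio to the control was 1.30 to 1.40 with siRNA1 and 3.46 to 3.68 with siRNA2, so reading depth was not what limited it. These intervals come from estimated reads and cover counting error only. Limma, fitted over the 14429 genes that averaged 1 TPM or more, passed neither CLDN1 (adjusted p = 0.9999, SE 0.70) nor CLDN4 (adjusted p = 0.9999, SE 0.71).

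**Figure D1:**
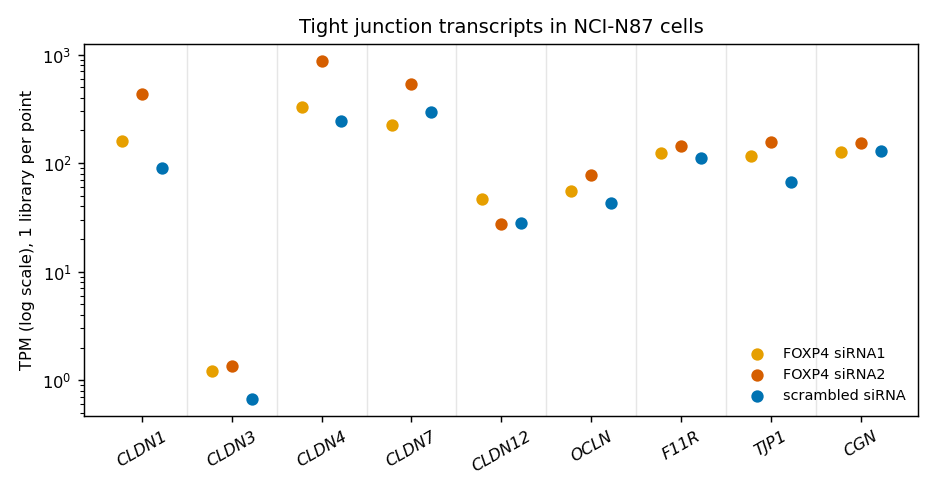
TPM of the 9 tight junction genes on a log axis, 1 point per library, with FOXP4 siRNA1, FOXP4 siRNA2 and the scrambled siRNA from left to right within each gene. CLDN4, CLDN1 and CLDN7 are highest with siRNA2 (875, 429 and 531 TPM), and CLDN3 lies near 1 TPM in every library.

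The bases before the RefSeq starts of CLDN1, CLDN4 and CLDN12 are shown because the first pair had the highest mean folds of the 9 genes and CLDN12 did not follow them with siRNA2. They are RefSeq sequences on GRCh38.p14, 250 bases ending just before the listed start, read 5′ to 3′ along the gene. The windows are chr3:190322447-190322696 on the minus strand for CLDN1, chr7:73830746-73830995 on the plus strand for CLDN4 and chr7:90403211-90403460 on the plus strand for CLDN12. Capitals mark matches to the motifs searched on both strands.
CLDN1: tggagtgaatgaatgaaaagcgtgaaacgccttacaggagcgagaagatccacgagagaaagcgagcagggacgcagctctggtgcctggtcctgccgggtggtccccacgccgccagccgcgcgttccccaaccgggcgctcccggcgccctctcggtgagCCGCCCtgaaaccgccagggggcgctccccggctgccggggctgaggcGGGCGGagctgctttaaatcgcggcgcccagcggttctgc
CLDN4: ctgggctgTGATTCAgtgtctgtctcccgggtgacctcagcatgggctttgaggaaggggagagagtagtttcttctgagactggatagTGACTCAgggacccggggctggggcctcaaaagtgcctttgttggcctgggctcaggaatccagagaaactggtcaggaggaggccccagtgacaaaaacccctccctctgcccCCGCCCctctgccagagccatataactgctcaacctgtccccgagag
CLDN12: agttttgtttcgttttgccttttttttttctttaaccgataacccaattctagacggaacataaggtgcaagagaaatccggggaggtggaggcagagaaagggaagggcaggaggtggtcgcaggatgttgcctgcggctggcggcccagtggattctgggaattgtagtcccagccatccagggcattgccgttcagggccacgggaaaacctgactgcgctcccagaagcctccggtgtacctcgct
The motifs were forkhead TGTTTAC and TGTTTGC, AP-1 TGANTCA, EGR GCGNGGGCG, the GC box GGGCGG, the E-box CACCTG and GRHL AACCGGTT. The EGR motif can overlap the GC box. The CLDN4 window holds 2 AP-1 matches and 1 GC box, the CLDN1 window 2 GC boxes, and the CLDN12 window no match. In GENCODE 29, exons of longer or alternative CLDN4 transcripts and of CLDN12 lie within these windows. The CLDN1 window also holds annotated bases: CLDN1 itself reaches to 190322475, and CLDN16 on the plus strand starts at 190322541.

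RefSeq windows were given for 8 of the 9 genes, with 13 starts in all. F11R had none in the table. The AP-1 motif was in 1 of the 13 windows, the CLDN4 one, against 6.57% of 35116 promoters of the same length. The GC box was in 9 windows, against 42.6% of promoters. The E-box, the letters bound by SNAI and ZEB repressors, was in 4 windows, against 17.5% of promoters, and the downstream CLDN7 start held 4 such matches. TGTTTAC was in 0 windows and TGTTTGC in 1, at a TJP1 start, against 2.98% and 3.23% of promoters. The EGR motif was in 1 window, also of TJP1, against 8.41%, and the GRHL motif in 0, against 0.117%. A match is a description of letters and not of binding.

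CLDN7 lay on opposite sides of the control with the siRNAs. It encodes a claudin found along the lateral membrane as well as in tight junctions (ENSG00000181885.18, chromosome 17, 7259903 to 7263983, minus strand). It measured 224 TPM with siRNA1 and 531 TPM with siRNA2, against 295 TPM with the scrambled siRNA. Log2 folds of -0.40 and 0.84 averaged 0.22 ± 0.88 (SD, n = 2), and limma did not pass it (adjusted p = 0.9999). CLDN7 transcripts are GC-rich at 59.6%, and correcting for GC content took the siRNA1 fold to 0.07.

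CLDN12 showed another split. It encodes an atypical claudin linked to calcium passage in the gut (ENSG00000157224.15, chromosome 7, 90383721 to 90513402, plus strand), and measured 47.0 TPM with siRNA1 and 27.5 TPM with siRNA2, against 28.2 TPM with the scrambled siRNA. The ratio to the control was 1.67 with siRNA1 (95% counting interval 1.53 to 1.81) and 0.97 with siRNA2 (0.88 to 1.07). On the TPM scale, no difference between siRNA2 and the control was thus detectable. The interval covers counting error and not the choice of scaling. Limma did not pass it (adjusted p = 0.9999). The siRNA2 fold of -0.04 became 0.23 with median-of-ratios rescaling and 0.07 with the GC trend removed. CLDN12 transcripts are GC-poor at 38.1%, and the siRNA1 fold of 0.72 was 0.24 once that trend was removed. In GENCODE 29, 5.15% of the exon bases of CLDN12 are shared with GTPBP10 on the same strand, which measured 19.0, 13.2 and 8.83 TPM with siRNA1, siRNA2 and the scrambled siRNA, and its part in the CLDN12 values was not tested.

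CLDN3, the close relative of CLDN4 that lies beside it on chromosome 7 (ENSG00000165215.6, 73768997 to 73770270, minus strand), was nearly silent. It measured 1.21 TPM with siRNA1 and 1.36 TPM with siRNA2, against 0.67 TPM with the scrambled siRNA. Those values rest on about 7, 8 and 4 estimated reads, and CLDN3 reached the filter of 1 TPM, at a mean of 1.08 TPM, only through the siRNA libraries. The counting intervals of the ratios, 0.46 to 8.44 and 0.54 to 9.23, both include 1, and limma did not pass it (adjusted p = 0.9999). Levels of the neighbours thus differed widely: with the scrambled siRNA CLDN4 stood at 245 TPM and CLDN3 below 1 TPM.

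OCLN, which encodes occludin, a membrane protein of the strands (ENSG00000197822.10, chromosome 5, 69492292 to 69558104, plus strand), was modestly above the control with both siRNAs. It measured 55.9 TPM with siRNA1 and 77.1 TPM with siRNA2, against 42.7 TPM with the scrambled siRNA. Log2 folds of 0.38 and 0.84 averaged 0.61 ± 0.32 (SD, n = 2). At a GC content of 39.9%, correcting for GC took its siRNA1 fold to -0.03. A partial copy, OCLNP1, exists in the annotation, and how its reads were assigned was not given. F11R encodes JAM-A, an adhesion molecule of the immunoglobulin family that helps to place junctions and polarity proteins (ENSG00000158769.17, chromosome 1, 160995211 to 161021348, minus strand). It measured 125 TPM with siRNA1 and 145 TPM with siRNA2, against 112 TPM with the scrambled siRNA, a mean log2 fold of 0.26 ± 0.15 (SD, n = 2). In GENCODE 29, 36.6% of its exon bases are shared with a transcript on the same strand, AL591806.3, and how such reads were assigned was not given. Limma passed neither gene (adjusted p = 0.9999 for each).

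TJP1, which encodes the scaffold ZO-1 that binds claudin tails and actin (ENSG00000104067.16, chromosome 15, 29699367 to 29968865, minus strand), had the largest mean fold of the 9 after CLDN1 and CLDN4. It measured 115 TPM with siRNA1 and 156 TPM with siRNA2, against 66.9 TPM with the scrambled siRNA. Both knockdown libraries thus lay above the control, by log2 folds of 0.78 and 1.21 that averaged 0.99 ± 0.31 (SD, n = 2). The siRNAs were closer to each other here than for CLDN1 and CLDN4, yet limma did not pass it (adjusted p = 0.9999, SE 0.47). CGN encodes cingulin, a plaque protein that binds ZO-1 and myosin (ENSG00000143375.14, chromosome 1, 151510510 to 151538692, plus strand). It measured 128 TPM with siRNA1 and 152 TPM with siRNA2, against 129 TPM with the scrambled siRNA. With siRNA1 the ratio was 0.995, with a counting interval of 0.95 to 1.04, so no difference was detectable on the TPM scale. That interval, too, leaves out the choice of scaling. The siRNA1 fold of CGN, -0.01, turned to 0.06 with mitochondrial genes left out and to 0.30 with the GC trend removed.

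**Figure D2:**
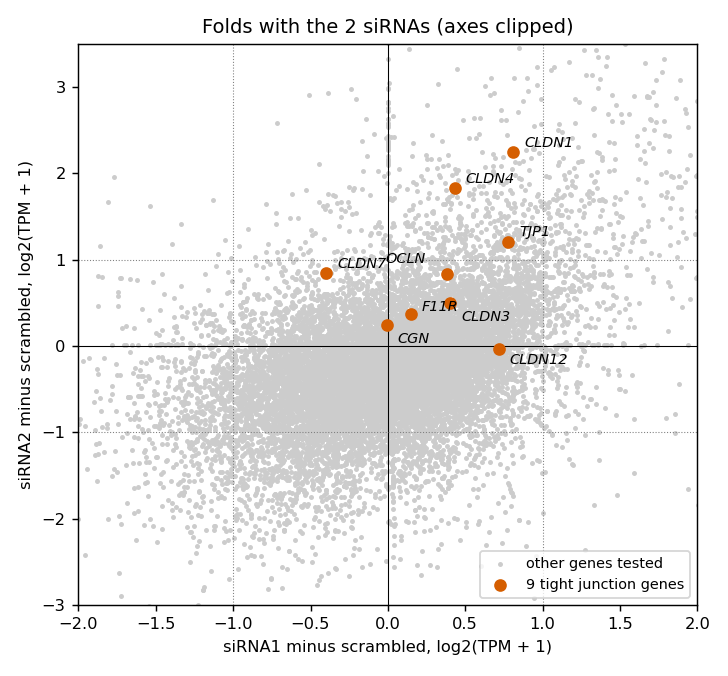
Difference from the scrambled library in log2(TPM + 1) with siRNA1 (x axis) and siRNA2 (y axis), 1 point per gene, with the 9 tight junction genes in orange and dotted lines at 2-fold. CLDN1, CLDN4 and TJP1 lie above the upper 2-fold line with siRNA2, and none of the 9 passes 2-fold with siRNA1. Both axes share the scrambled library.

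As a group, the 9 genes had median log2 folds of 0.40 for siRNA1 and 0.84 for siRNA2, where the medians of all genes tested were 0.03 and -0.24. The siRNA1 median was the fold of CLDN3 itself. That gene rests on about 7 and 4 estimated reads there and passed the filter only through the siRNA libraries. Over those of the 9 averaging 10 TPM or more, which leaves CLDN3 out, the medians were 0.41 and 0.84. Because the 9 were chosen with earlier results of these data known, these comparisons with all genes describe the list and do not test it. With siRNA2, 3 of the 9 were at least 2-fold above the control (CLDN1, CLDN4 and TJP1), against 6.88% of all genes tested. With siRNA1 0 of the 9 were, against 5.27% of all genes, and with both siRNAs 0 of the 9, against 2.52%. None was 2-fold lower with siRNA1 (6% of all genes), with siRNA2 (13.2%) or with both (2.38%). By any size, 6 of the 9 were higher with both siRNAs, against 24.5% of all genes, and CLDN7, CLDN12 and CGN were split. CLDN3 is counted among the 6 on its few reads. None was lower with both, against 38.1% of all genes. Limma called 0 of the 9, and 0 of the 14429 genes (0%), with 428 genes at an unadjusted p under 0.05 and none of the 9 among them. With 1 residual degree of freedom, a gene's own spread comes only from how far the siRNA libraries lie apart. Limma draws that spread towards a trend over all genes and assumes the same spread for the lone scrambled library. The labels name no separate cultures, so the p-values of limma speak of these libraries only, and their spread may be technical.

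Set directly against siRNA1, siRNA2 gave higher values for 8 of the 9 genes, all but CLDN12, where 35.4% of all genes were higher. CLDN1, CLDN4 and CLDN7 were at least 2-fold higher with siRNA2 than with siRNA1, by 1.43, 1.40 and 1.24 on the log2 scale, against 5.99% of all genes. None was 2-fold lower, against 12.8% of all genes. OCLN, TJP1, CGN and F11R differed by 0.46, 0.43, 0.25 and 0.22. CLDN3 differed by only 0.09, on about 8 estimated reads with siRNA2 and 7 with siRNA1. With 1 library per siRNA there is no replicate check on these differences. Mitochondrially encoded genes took 10.4% of TPM with siRNA1 and 1.92% with siRNA2, against 6.37% with the scrambled siRNA, and TPM makes all other genes share the rest. Leaving those genes out gave CLDN1 folds of 0.87 and 2.18 and CLDN4 folds of 0.49 and 1.76.

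GC content moved with the siRNA1 folds. Across 8578 nuclear genes that averaged 10 TPM or more, the Spearman correlation of fold with GC content was -0.68 with siRNA1 and -0.11 with siRNA2. The points are genes of the same pair of libraries and are not independent. CLDN1, TJP1 and CLDN12, which had the 3 largest siRNA1 folds of the 9, have GC contents of 41.5%, 44.8% and 38.1%, while CLDN4, the next, has 57.5%. After removal of that trend with a smooth curve, the siRNA1 folds were 0.46 for CLDN1, 0.80 for CLDN4 and 0.57 for TJP1, and the siRNA2 folds 2.41, 2.14 and 1.41. On that scale 8 of the 9 were higher with both siRNAs, all but OCLN, where 33.9% of all genes were. With siRNA2, 4 were at least 2-fold higher, CLDN7 joining CLDN1, CLDN4 and TJP1, against 8.89% of all genes. CLDN3 then had a fold of 1.44 with siRNA1, a value that rests on the same 7 and 4 estimated reads.

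**Figure D3:**
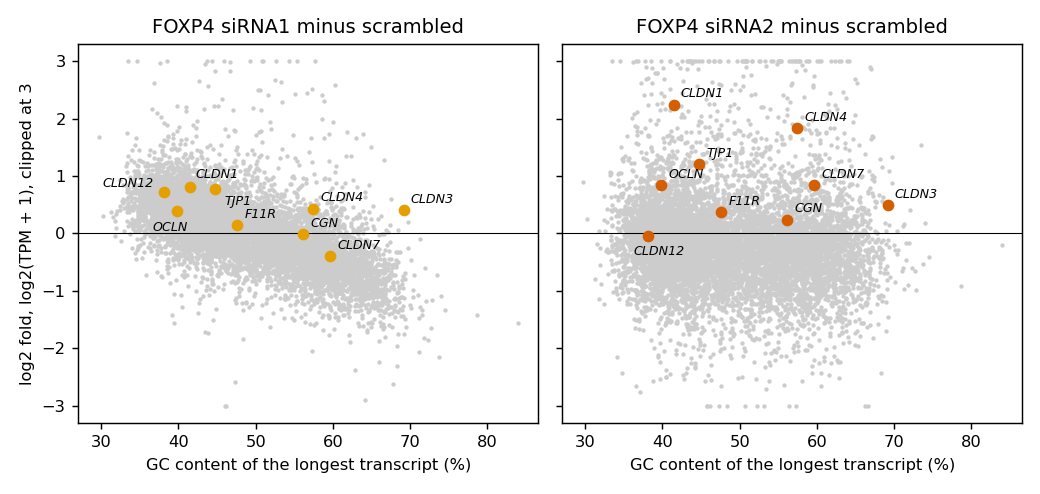
Difference from the scrambled library in log2(TPM + 1) against the GC content of the longest transcript, for siRNA1 (left) and siRNA2 (right), with genes of at least 10 TPM in grey and the 9 tight junction genes in colour. The grey cloud slopes down with siRNA1 (Spearman -0.68) and hardly with siRNA2 (-0.11), and CLDN4 lies above the cloud's centre in both panels.

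The typical gene also lay lower in the siRNA2 library, though TPM is scaled to a fixed total. Median-of-ratios rescaling, which centres the libraries on their typical gene, moved the median of all genes with siRNA2 to 0.00 in place of -0.24, and the share of genes higher with siRNA2 to 50.1% in place of 34.6%. The median of the 9 genes was then 0.38 for siRNA1, again the fold of CLDN3, and 1.11 for siRNA2. Of the 9, 7 were higher with both, CLDN12 and CLDN3 included, against 32.3% of all genes. With siRNA2, 5 were then at least 2-fold higher, CLDN7 and OCLN joining CLDN1, CLDN4 and TJP1, against 9.62% of all genes. The rescaling shifts all genes of a library nearly alike, so the gap between the 9 and all genes hardly depends on it.

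The order of the levels changed at the top. With siRNA1 and with siRNA2 CLDN4 was the most abundant of the 9, followed by CLDN7 and CLDN1. With the scrambled siRNA CLDN7 came before CLDN4, then CGN, F11R and CLDN1. OCLN, CLDN12 and CLDN3 held the last places in all 3 libraries. F11R and CGN were neighbours with siRNA1, at 125 and 128 TPM, and had no replicates from which to tell them apart.

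All claudins in the table together measured 1661 TPM with siRNA1 and 3032 TPM with siRNA2, against 1625 TPM with the scrambled siRNA. CLDN1, CLDN3, CLDN4, CLDN7 and CLDN12 made up 45.9% of that with siRNA1 and 61.5% with siRNA2, against 40.6% with the scrambled siRNA. CLDN4 alone took 19.95% and 28.8%, against 15.1%. The most abundant claudin outside the 9 genes was CLDN6, known as a claudin of embryonic epithelium and some tumours, at 513 TPM with siRNA1 and 903 TPM with siRNA2, against 672 TPM with the scrambled siRNA. The log2 folds of CLDN6, -0.39 and 0.42, were 0.06 and 0.73 with the GC trend removed. CLDN2, a cation-channel claudin named after its values were seen, measured 371 and 251 TPM, against 270 TPM. Its share of claudin TPM was 22.3% with siRNA1 and 8.28% with siRNA2, against 16.6% with the scrambled siRNA. CLDN18, the claudin typical of gastric epithelium, was low and lower still with both siRNAs, at 5.602 and 3.39 TPM, against 10.9 TPM.

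**Figure D4:**
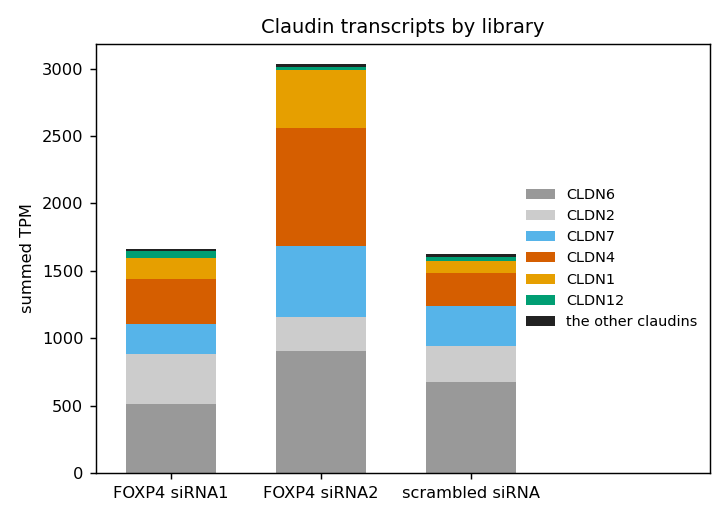
Summed TPM of the claudins in the table for FOXP4 siRNA1, FOXP4 siRNA2 and the scrambled siRNA, 1 library per bar, split by gene. The siRNA2 bar reaches 3032 TPM, against 1661 TPM with siRNA1 and 1625 TPM with the scrambled siRNA, and its CLDN4, CLDN6, CLDN7 and CLDN1 parts (875, 903, 531 and 429 TPM) are each larger than in the other bars.

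Other genes of tight junctions lay closer to the control as a group, by their medians, than the 9. Of 54 listed, 49 were in the table and 33 averaged 1 TPM or more. Their medians were 0.15 for siRNA1 and -0.02 for siRNA2. With CLDN24 left out, which is listed at 0 with the scrambled siRNA, the medians were 0.13 and -0.03. Of the 33, 11 were higher with both siRNAs, 9 were lower with both and 13 were split, and 2 were at least 2-fold higher with both (PARD6B and CLDN24). Without CLDN24, 1 of 32 was, against 2.52% of all genes. Limma passed 0 of them, with 1 at an unadjusted p under 0.05. The difference between these genes and the 9 was not tested, and both lists were chosen with earlier results of these data known. CLDN24 measured 1.99 TPM with siRNA1 and 1.30 TPM with siRNA2, which rest on about 6 and 4 estimated reads, and passed the filter of 1 TPM only through those libraries. No fold is given for it. Among the other 5 claudins tested, CLDN18 had the lowest mean fold and CLDN2 the highest.

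Among other membrane proteins, ESAM, an adhesion molecule best known from endothelium, had the highest mean fold. It measured 61.4 TPM with siRNA1 and 122 TPM with siRNA2, against 41.6 TPM with the scrambled siRNA. MARVELD3, a relative of occludin, had the lowest mean fold, at 11.2 and 7.06 TPM, against 13.2 TPM. LSR, which builds the contacts where 3 cells meet, was the most abundant in each library, at 510 and 1157 TPM, against 940 TPM. Its GC content is 64.8%, and its siRNA1 fold of -0.88 was -0.11 with the GC trend removed.

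Among polarity and plaque genes, PARD6B had the largest mean fold. PARD6B, a polarity adaptor that joins PAR3 to atypical protein kinase C at the forming junction, measured 142 TPM with siRNA1 and 289 TPM with siRNA2, against 38.4 TPM with the scrambled siRNA. Log2 folds of 1.86 and 2.88 averaged 2.37 ± 0.72 (SD, n = 2). Limma over all 14429 genes did not pass it (adjusted p = 0.9999). Limma over the 9129 genes that averaged 10 TPM or more did (adjusted p = 0.0038, 1.02% of genes called), a fit that took its spread wholly from the trend over all genes. None of the 9 tight junction genes passed there, with CLDN1 the nearest, but CLDN3 averaged too little to be in that fit. PARD6A, the paralog of PARD6B, had the lowest mean fold of the list, at 16.1 and 10.3 TPM, against 30.3 TPM. The log2 folds of PARD6A, -0.87 and -1.47, were -0.23 and -1.15 with the GC trend removed. PRKCI, the atypical protein kinase C of the same complex, had the highest mean TPM of the list over the 3 libraries, at 256 and 207 TPM, against 173 TPM.

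**Figure D5:**
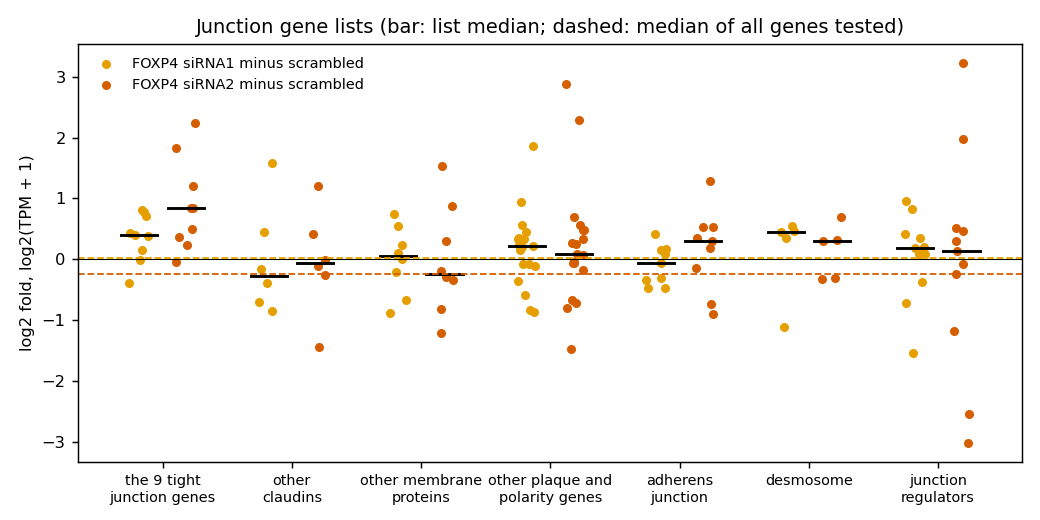
Differences from the scrambled library in log2(TPM + 1) for 7 lists of junction genes, 1 point per gene averaging 1 TPM or more, siRNA1 left and siRNA2 right within each list. Black bars are list medians and dashed lines the medians of all genes tested (0.03 and -0.24). The 9 tight junction genes have medians of 0.40 and 0.84, and PARD6B is the highest point of the plaque and polarity list.

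Adherens junction genes, which hold neighbouring cells together through cadherins, had medians of -0.06 and 0.31 over 9 genes tested. CDH1, which encodes E-cadherin, had the highest mean fold, at 5.86 and 11.6 TPM, against 4.16 TPM. JUP, which encodes plakoglobin, had the lowest mean fold, at 338 and 251 TPM, against 471 TPM. Its log2 folds of -0.48 and -0.90 were 0.10 and -0.59 with the GC trend removed. CTNNB1, which encodes beta-catenin, had the highest mean TPM of the list over the 3 libraries, at 469 and 521 TPM, against 421 TPM. Desmosome genes had medians of 0.45 and 0.30 over 5 genes tested. DSP, the desmosomal plaque protein desmoplakin, measured 204 and 227 TPM, against 139 TPM, while DSG2, a desmosomal cadherin, measured 303 and 269 TPM, against 218 TPM. PKP3, a desmosomal plaque protein, measured 104 and 181 TPM, against 226 TPM. Its GC content is 66.7%, and its log2 folds of -1.11 and -0.32 were -0.23 and 0.02 with the GC trend removed. Limma passed 0 genes of either list, with 0 at an unadjusted p under 0.05, and the lists were not tested against the 9 tight junction genes.

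Transcription factors known to act on epithelial junction genes were mixed. Over 11 tested, the medians were 0.19 and 0.14, and limma over all 14429 genes passed 0, with 1 at an unadjusted p under 0.05. KLF4 measured 108 TPM with siRNA1 and 522 TPM with siRNA2, against 54.7 TPM with the scrambled siRNA, and its relative KLF5 696 and 1548 TPM, against 393 TPM. CDX2, an intestinal homeobox factor, had the lowest mean fold, at 54.6 and 19.0 TPM, against 161 TPM. The claudin repressor genes SNAI2, ZEB2 and TWIST1 were listed at 0 in every library, and SNAI1 measured 12.8 and 16.9 TPM, against 12.0 TPM. ZEB1, the other repressor listed, measured 0.457 TPM with siRNA1 and 1.12 TPM with siRNA2, against 0.344 TPM, on about 18, 45 and 14 estimated reads, and averaged too little to be tested. Both KLF4 and CDX2 passed limma only in the fit at 10 TPM. That fit took its spread wholly from the trend over all genes, and so ignored how far the siRNAs lay apart for each gene. Their log2 folds with siRNA1 and siRNA2 were 0.96 and 3.23 for KLF4 and -1.54 and -3.02 for CDX2.

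Among 9128 other genes that averaged 10 TPM or more, the nearest pairs of folds to that of CLDN1 belonged to AGO2, SDC4 and ELL2. Their distances in the plane of the 2 log2 folds were 0.01, 0.02 and 0.08. SDC4, the proteoglycan syndecan-4, measured 921 and 2439 TPM, against 522 TPM. The nearest to CLDN4 were LRRC8A, MYADM and NRP1, at distances of 0.05, 0.08 and 0.08, and LRRC8A, a volume-regulated anion channel subunit, measured 89.1 and 227 TPM, against 65.3 TPM. Each likeness rests on 3 libraries.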

How the data were processed

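RNA was measured by poly(A) sequencing of 1 library per siRNA. The authors deposited TPM values per gene symbol in 1 table, with GRCh38 as the genome build per the submitters' processing notes. No aligner, counting tool or annotation is named in the sources used here. Folds were differences of log2(TPM + 1) for genes averaging 1 TPM or more. The group test was limma 3.58.1 in R 4.3.3 (2 FOXP4 siRNA libraries against 1, variance trend, Benjamini-Hochberg adjustment over all genes, threshold 0.05), checked on simulated data. A rule of size, at least 2-fold, stood beside it. Reads were estimated from TPM times exon length in GENCODE 29, since 92.6% to 93.0% of values under 2 TPM and up to 10 estimated reads lay within 0.1 of a whole read. Exact 95% counting intervals came from them. GC trends were removed with a lowess curve. Of the junction and regulator symbols, 5 matched through RefSeq synonyms and 7 were not matched. Outside the 9 genes, each list is represented by its highest and lowest mean fold and its most abundant gene, any gene passing limma and, after its values were seen, CLDN2, SNAI1, SNAI2, ZEB1, ZEB2 and TWIST1. The 9 genes and all lists were chosen with earlier results of these data known.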

Additional observations from a re-analysis of the deposited data

How the results depend on the processing

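Each value was recomputed with a pseudocount of 0.1 or 5, no filter, a mean of at least 10 TPM, median-of-ratios rescaling, mitochondrial genes left out and the GC trend removed. CLDN3 averaged too little for the fit at 10 TPM. A change of filter leaves a gene's fold as it is, so its direction could not change there. A pseudocount cannot turn the direction of a single siRNA's fold. The mean fold of the 9 genes kept its direction in 62 of 62 recomputed values, and limma passed none of them in any. Limma calls over all genes were 0, but 93 at a mean of at least 10 TPM and 9 with mitochondrial genes left out; the cause was not tested. Without siRNA1 or without siRNA2, which leaves values with no test, the number of the 9 at least 2-fold from the control was 0 to 3, and 3 means changed sign: CLDN12 (-0.037 with siRNA2 alone, 0.72 with siRNA1 alone), CLDN7 (0.84 and -0.40) and CGN (0.24 and -0.0065). No paired analysis was possible because the groups share fewer than 2 replicate numbers. Depth leaves the CLDN3 ratios unresolved. On the TPM scale, the counting intervals of CLDN12 with siRNA2 and CGN with siRNA1 include 1.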
